A study of Homo sapiens with 3 samples.

Results

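The ephrins, Eph receptors, semaphorins and plexins are 4 families of cell guidance genes, and 43 of the 16149 genes listed in 3 mRNA libraries of human hepatocellular carcinoma (HCC) cells belonged to them. A gene was taken as a member when its symbol was that of an Eph receptor of class A or B, an ephrin of class A or B, a numbered semaphorin or a plexin of class A to D. By this rule 9 Eph receptors, 7 ephrins, 18 semaphorins and 9 plexins were found. The RefSeq gene table of GRCh38.p14 holds 51 protein-coding genes of these families, and 8 of them (EPHA5, EPHA6, EPHA7, EPHA8, EPHB1, EFNA2, SEMA3F and SEMA6A) were listed in no library. All 9 plexins of the table were listed.

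The study asked which genes accompany the spread of HCC cells to particular organs. It sequenced 1 library from each of 3 cultured cell lines: the parent, subclone 1 and subclone 2, all labelled as HCCLM3, a human HCC line. The labels give the parent a low ability to metastasize, subclone 1 a higher one directed to the lung, and subclone 2 one that reaches the lung as well as celiac lymph nodes, whereas the methods of the study name the parent HCCLM3-R, which carries red fluorescent protein, and call it highly metastatic. The subclones of the study were each grown from 1 cell taken from metastases of orthotopic nude mouse xenografts, so that a subclone stands for 1 clone, and which of its monoclones were sequenced is not stated. The labels name no treatment, and the cells were grown in DMEM before RNA extraction.

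Ephrins are membrane-bound ligands of the Eph receptor tyrosine kinases: class A ephrins are held by a lipid anchor and mainly bind EphA receptors, and class B ephrins span the membrane and mainly bind EphB receptors. Because both partners sit on cells, each can signal into its own cell, and the contact often ends in repulsion or in the sorting of cells into separate domains. Semaphorins are secreted or membrane-bound ligands of the plexins, which act on small GTPases of the Ras and Rap families; the secreted class 3 semaphorins mostly need neuropilins as co-receptors. Both systems were found in axon guidance and are also at work in blood vessels, in epithelia and in tumours, where they bear on the adhesion and movement of cells.

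Of the 43 members, 24 had a mean of at least 1 RPKM over the 3 libraries. RPKM divides the reads of a gene by the length of the gene and by the size of the library, so that levels of different genes can be set side by side. Reads were recovered from the RPKM of all 43 members, and the libraries held 4488825 (parent), 4609696 (subclone 1) and 4725150 (subclone 2) of them. With 1 library per cell line no test between cell lines was possible and no p-value was computed. The 95% intervals given with levels (exact Poisson) and with ratios (Clopper-Pearson) cover counting error only and compare libraries, not cell lines. In a library made from many cells, fewer cells that express a gene and less RNA of it per cell cannot be told apart.

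6 of the 24 members were at least 2-fold higher or lower in a subclone than in the parent, namely PLXNB2, PLXNB3, SEMA4G, EFNA1, EFNB1 and EPHB3. Of all genes with such a mean, 4.90% were 2-fold higher and 1.82% lower in subclone 1, and 5.33% and 2.16% in subclone 2. The share of all genes past 2-fold in either subclone was not counted. The stretches of 250 bases before the start of 4 of the 6 members are shown here because these 4, 1 ligand and 3 receptors, differed most from the parent. They come from RefSeq (GRCh38.p14), are written 5′ to 3′ on the strand of the gene, and carry the GC box in capitals (GGGCGG on this strand and CCGCCC where the box lies on the other, with overlapping copies run together).
EFNB1 (chrX:68828771-68829020, plus strand): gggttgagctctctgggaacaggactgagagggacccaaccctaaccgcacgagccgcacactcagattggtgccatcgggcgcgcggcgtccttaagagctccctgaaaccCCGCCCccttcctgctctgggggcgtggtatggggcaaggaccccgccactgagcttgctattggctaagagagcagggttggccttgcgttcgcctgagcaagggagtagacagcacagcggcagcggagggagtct
EPHB3 (chr3:184561535-184561784, plus strand): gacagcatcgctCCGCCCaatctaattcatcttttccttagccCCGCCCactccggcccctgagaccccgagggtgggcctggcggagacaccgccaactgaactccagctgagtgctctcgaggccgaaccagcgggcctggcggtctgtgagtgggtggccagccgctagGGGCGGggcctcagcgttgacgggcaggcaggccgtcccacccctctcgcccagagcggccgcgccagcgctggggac
PLXNB2 (chr22:50301670-50301919, minus strand): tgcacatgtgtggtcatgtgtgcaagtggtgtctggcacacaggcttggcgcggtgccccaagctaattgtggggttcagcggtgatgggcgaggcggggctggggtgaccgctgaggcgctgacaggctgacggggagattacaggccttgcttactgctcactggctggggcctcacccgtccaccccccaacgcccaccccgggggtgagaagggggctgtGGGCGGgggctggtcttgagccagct
PLXNB3 (chrX:153763999-153764248, plus strand): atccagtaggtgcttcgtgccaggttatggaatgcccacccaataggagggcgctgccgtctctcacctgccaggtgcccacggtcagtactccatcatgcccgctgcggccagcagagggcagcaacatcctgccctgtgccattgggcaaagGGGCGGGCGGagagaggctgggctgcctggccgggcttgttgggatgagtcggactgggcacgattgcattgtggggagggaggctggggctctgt
A GC box was found on either strand in 20 of the 23 promoters at hand for the 24 members, against 68.0% of the promoters of all genes with a mean of at least 1 RPKM and 42.3% of all 27305 promoters of the same length. The TATA box in the form TATAAA was found on either strand in 0 of the 23, against 5.17% of the promoters of genes at that level. An E-box in the form CACGTG was found in 0 of the 23 against 9.06%, and the AP-1 site in the form TGACTCA in 0 of the 23 against 2.37%. At shares this low 23 promoters would hold few or none of these 3 sites, so the counts of 0 show no lack. The 23 had a median of 70% G or C against 64.8% for genes at that level, which the GC box share does not allow for. These letters are a description of the windows, and binding to them was not measured. The member with the lower RNA, EPHB3, carried 3 GC boxes, and EFNB1, PLXNB2 and PLXNB3 carried 1, 1 and 2.

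**Figure D1:**
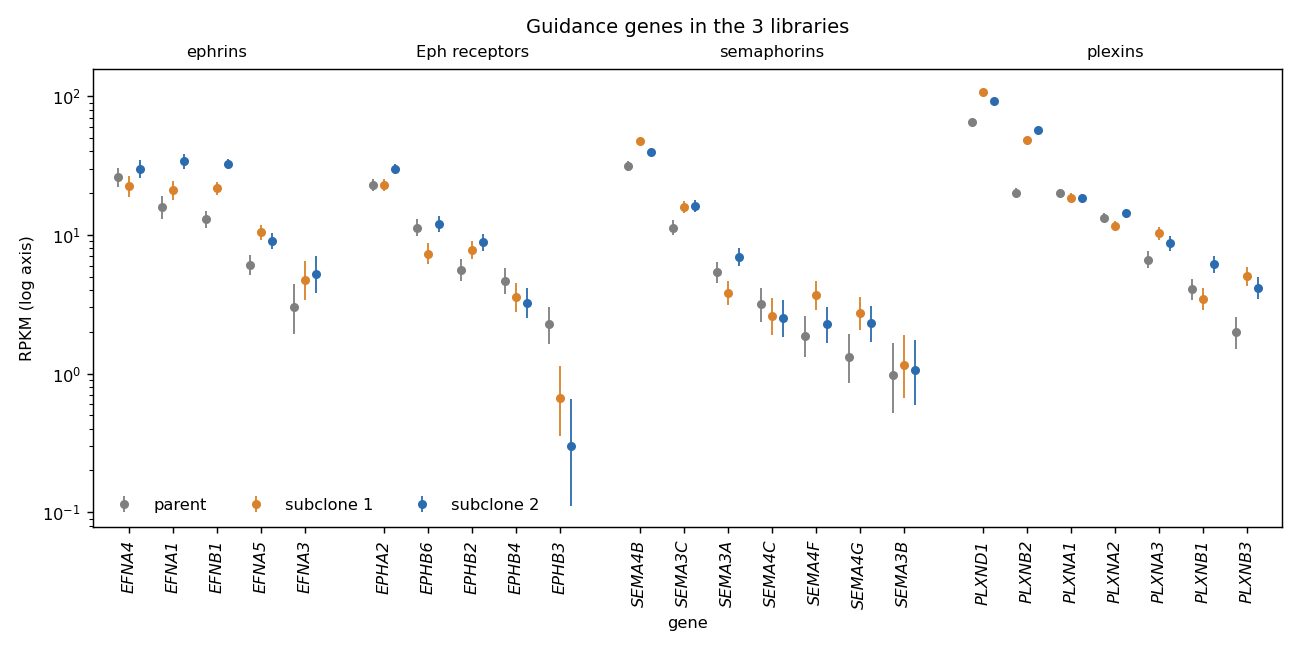
RPKM on a log axis of the 24 guidance genes with a mean of at least 1 RPKM in the parent (grey), subclone 1 (orange) and subclone 2 (blue), ordered by family and by mean level, with exact Poisson 95% intervals as bars. PLXND1 was highest in each library, at 64.8, 107 and 93.2 RPKM, and EPHB3 was the one gene to go from 2.26 RPKM in the parent to under 1 RPKM in both subclones.

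A ratio was called when log2 of (RPKM + 0.1) differed by at least 1 between libraries, that is by 2-fold on this scale. In subclone 1 over the parent 3 of the 24 members were called higher (12.5%), where 4.90% of the 11370 genes at this level were, and 1 was called lower (4.17%), where 1.82% of all genes were. In subclone 2 over the parent 4 members were called higher (16.7%) against 5.33% of all genes, and 1 was called lower against 2.16%. The lower call was EPHB3 in both subclones, which passed the filter only through its level in the parent, so its share is not support for a fall. With a minimum of 5 RPKM, 0 members were lower in either subclone. Between the subclones 0 members were called higher and 0 lower in subclone 2 than in subclone 1, against 1.42% and 1.39% of all genes. Both comparisons with the parent share its library, so a low or high reading there moves both. The median log2 ratio of the 24 members was 0.43 in subclone 1 and 0.39 in subclone 2, against 0.00 and 0.04 over all genes, and it was 0.00 between the subclones, against 0.03.

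By the counting interval of the ratio, without regard to its size, 12 members lay above the parent in subclone 1 and 4 below it, where 20.9% and 19.9% of the 10011 genes with recovered reads did. In subclone 2 the interval of 15 members lay above the parent and that of 2 below it, where 23.5% and 18.8% of the genes did. Between the subclones it lay higher in subclone 2 for 9 members and lower for 4, against 12.1% and 8.83% of the genes. The members are rich in G and C, with a median of 60.7% in their transcripts against 48.9% over all genes, and the ratio over the parent moved with this content. Its median went from -0.08 in the poorest of 10 groups of genes of equal size to 0.14 in the richest for subclone 1, and from -0.06 to 0.18 for subclone 2. Measured against the genes of the same group, the median of the members was 0.38 in subclone 1 and 0.33 in subclone 2. Single ratios that lose a call or change side after this centring are named with their genes.

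**Figure D2:**
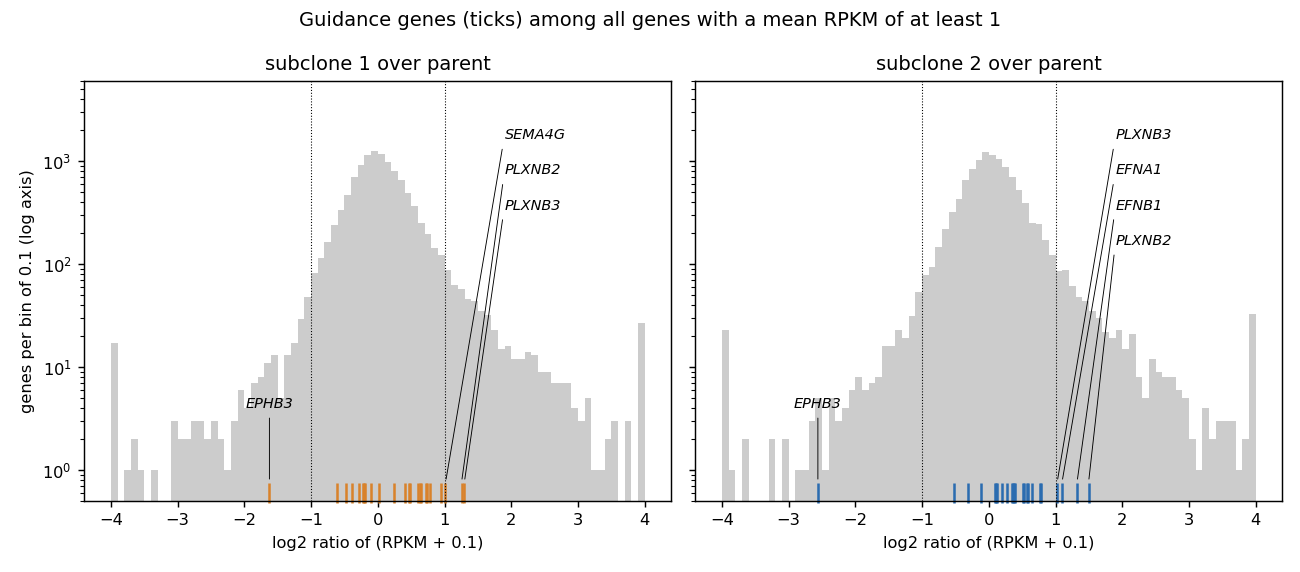
Number of genes per bin of 0.1 in the log2 ratio of (RPKM + 0.1) over the parent, on a log axis, for the 11370 genes with a mean of at least 1 RPKM, with the outermost bins holding all values beyond 4 in size. Ticks at the foot mark the 24 guidance genes, and those past the dotted 2-fold lines are named. Most ticks lie to the right of 0 in both panels, 15 of 24 in subclone 1 and 20 of 24 in subclone 2. The median of all genes was 0.00 and 0.04 in these panels.

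The ephrins, the ligands of the Eph receptors, were higher in subclone 2 than in the parent for each of the 5 members with a mean of at least 1 RPKM. The counting interval left out equality for 4 of these, where 23.5% of all genes with recovered reads lay above the parent. In subclone 1 the ratio was above 1 for 4 of the 5, and its interval for 3, against 20.9% of those genes. The counts above 1 were the same under each of the 5 other scalings tried. The median log2 ratio of the family was 0.64 in subclone 1 and 0.78 in subclone 2, against 0.00 and 0.04 over all genes.

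EFNB1, a membrane-spanning ligand of EphB receptors encoded on chromosome X, had 13.0 RPKM in the parent against 21.7 in subclone 1 and 32.6 in subclone 2, from 195, 334 and 515 reads. The 3 libraries stood apart in this order, since their intervals did not overlap. Relative to the parent, subclone 1 stood at 1.67 (95% interval 1.39 to 2.001) and subclone 2 at 2.51 (2.12 to 2.97). Subclone 2 exceeded subclone 1 by 1.504-fold (1.31 to 1.73). EFNB1 supplied nearly all class B ephrin RNA, as EFNB2 was read 0, 0 and 1 times in the parent, subclone 1 and subclone 2 and EFNB3 0, 2 and 0 times. The class B sum was 13.0 ± 0.93 RPKM in the parent, then 21.8 ± 1.19 in subclone 1 and 32.6 ± 1.44 in subclone 2, where the errors are counting errors.

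EFNA1, a lipid-anchored ephrin that is a main ligand of EPHA2, had 15.8 RPKM in the parent library, 21.0 in subclone 1 and 33.9 in subclone 2, from 113, 154 and 255 reads. The parent and subclone 1 overlapped in their intervals of level, and subclone 2 lay above both. This was a ratio over the parent of 1.33 (1.03 to 1.71) in subclone 1 and 2.14 (1.71 to 2.70) in subclone 2. EFNA4, another class A ephrin and the highest of the family by mean, had 26.0, 22.6 and 29.9 RPKM in the parent, subclone 1 and subclone 2, and its intervals overlapped throughout, although subclone 2 exceeded subclone 1 by 1.32-fold (1.05 to 1.66). Its ratio over the parent was 0.869 (0.683 to 1.11) in subclone 1 and 1.15 (0.919 to 1.44) in subclone 2. EFNA1, EFNA3 and EFNA4 lie next to each other on chromosome 1 with no other protein-coding gene between them. The EFNA1 ratio over the parent exceeded that of EFNA4 by 1.53-fold (1.07 to 2.17) in subclone 1 and by 1.87-fold (1.35 to 2.58) in subclone 2. It could not be told from that of EFNA3, at 0.839 (0.455 to 1.52) times in subclone 1 and 1.23 (0.681 to 2.18) in subclone 2. Against EFNA5 the EFNA1 ratio was 0.766 (0.551 to 1.07) times in subclone 1 and 1.43 (1.05 to 1.97) in subclone 2. EFNA1 was the class A ephrin called in subclone 2, so its higher ratio there follows from the choice.

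EFNA5, a class A ephrin that can also bind EPHB2, had 6.05 RPKM in the parent against 10.5 in subclone 1 and 9.04 in subclone 2, and both subclones lay above the parent. EFNA3 had 3.00, 4.75 and 5.23 RPKM in the same order, from 24, 39 and 44 reads. In the reference annotation 47.9% of the EFNA3 exon bases and 15.0% of those of EFNA4 also belong to a transcript that runs through both, so reads there cannot be given to 1 gene with certainty. The class A sum was 50.9 ± 2.72 RPKM in the parent, then 58.9 ± 2.78 in subclone 1 and 78.1 ± 3.23 in subclone 2.

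The Eph receptors with a mean of at least 1 RPKM held the one member called lower, EPHB3, and the other 4 kept within 2-fold of the parent. Of the 5 receptors, 2 lay above and 3 below the parent in subclone 1, and 3 above and 2 below in subclone 2. The median log2 ratio of the family was -0.38 in subclone 1 and 0.10 in subclone 2, against 0.00 and 0.04 over all genes. The counting interval lay above the parent for 1 receptor and below it for 2 in subclone 1, where 20.9% and 19.9% of genes did. In subclone 2 it lay above for 2 and below for 2, where 23.5% and 18.8% of genes did. Dividing by ACTB or centring within groups of like G and C content turned EPHA2 from above to below in subclone 1, and the latter did the same to EPHB6 in subclone 2.

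EPHB3, a receptor for class B ephrins known for keeping cell types apart in the intestinal epithelium, had 2.26 RPKM in the parent library, 0.666 in subclone 1 and 0.2999 in subclone 2, from 43, 13 and 6 reads. The interval of the parent (1.64 to 3.05 RPKM) lay above those of subclone 1 (0.355 to 1.14) and subclone 2 (0.110 to 0.653), which overlapped. Subclone 1 was 0.294 (0.145 to 0.558) times the parent, and subclone 2 0.133 (0.0461 to 0.313) times. EPHB3 reached a mean of at least 1 RPKM only through its level in the parent. At these counts a difference between the subclones was not detectable, with a ratio of 0.450 (0.140 to 1.27). With a pseudocount of 1, which shrinks ratios of low levels, EPHB3 in subclone 1 came to -0.97 on the log2 scale and was no longer called.

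The EPHB3 ratio over the parent was lower than that of each of the other EphB receptors in both subclones. EPHB3 was set against them because it was called and they were not, so this order follows from the choice. The values below give its size and are not support for a fall. EPHB2, its close relative, had 5.63 RPKM in the parent against 7.80 in subclone 1 and 8.82 in subclone 2, and the EPHB3 ratio over the parent was 0.213 (0.101 to 0.425) times that of EPHB2 in subclone 1 and 0.0851 (0.0287 to 0.209) times in subclone 2. EPHB4, the receptor of EFNB2 on veins, had 4.69, 3.58 and 3.25 RPKM in the parent, subclone 1 and subclone 2, with only subclone 2 below the parent by its counting interval, and the EPHB3 ratio was 0.388 (0.177 to 0.802) and 0.193 (0.0634 to 0.491) times that of EPHB4 in subclone 1 and subclone 2. EPHB6, which lacks kinase activity, had 11.3 RPKM in the parent, then 7.35 in subclone 1 and 12.1 in subclone 2, so that subclone 1 alone was low. The EPHB3 ratio was 0.453 (0.215 to 0.898) times that of EPHB6 in subclone 1 and 0.124 (0.0423 to 0.301) times in subclone 2. The EphB sum was 23.9 ± 1.11 RPKM in the parent library, 19.4 ± 0.98 in subclone 1 and 24.5 ± 1.09 in subclone 2.

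EPHA2, a receptor of class A ephrins that is abundant in many carcinomas, gave from 96.5% to 98.1% of the summed EphA RPKM of a library. It had 22.9 RPKM in the parent against 23.1 in subclone 1 and 29.9 in subclone 2, so that the parent and subclone 1 had nearly the same value and subclone 2 was above both. Relative to the parent, subclone 1 stood at 1.007 (0.877 to 1.16) and subclone 2 at 1.31 (1.15 to 1.49), and subclone 2 exceeded subclone 1 by 1.30-fold (1.14 to 1.48). The other EphA receptors listed, EPHA1, EPHA3, EPHA4 and EPHA10, had at most 7 reads in any library.

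**Figure D3:**
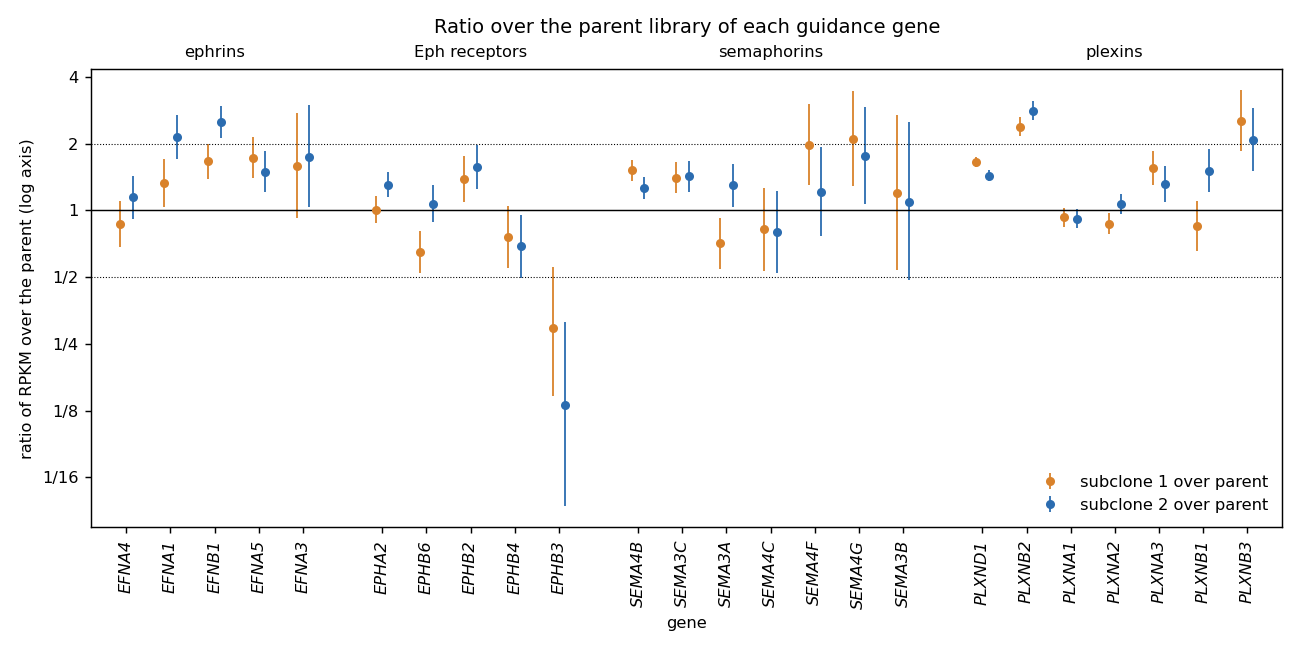
Ratio of RPKM over the parent on a log axis for the 24 guidance genes in subclone 1 (orange) and subclone 2 (blue), with Clopper-Pearson 95% intervals as bars, a line at equality and dotted lines at 2-fold. PLXNB2 (2.39 and 2.83) and EPHB3 (0.294 and 0.133) lay past 2-fold in both subclones on opposite sides, and PLXNB3 at 2.53 and 2.08.

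Among the semaphorins, the ligands of the plexins, 7 of the 18 listed had a mean of at least 1 RPKM, and these were of classes 3 and 4. The ratio over the parent was above 1 for 5 of the 7 in subclone 1 and for 6 of the 7 in subclone 2, where centring within groups of like G and C content left 5. Over all genes the median log2 ratio was 0.00 and 0.04, so about as many genes lay above 1 as below it. The counting interval lay above the parent for 4 of the 7 in each subclone, where 20.9% and 23.5% of all genes did, and below it for 1 (SEMA3A) in subclone 1 and 0 in subclone 2.

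SEMA4B, a membrane-bound semaphorin and the highest of the family, had 31.3 RPKM in the parent, then 47.5 in subclone 1 and 39.7 in subclone 2, from 536, 835 and 715 reads. Its intervals did not overlap between libraries, and subclone 1 was the highest. This was a ratio over the parent of 1.52 (1.36 to 1.69) in subclone 1 and 1.27 (1.13 to 1.42) in subclone 2, and subclone 2 came to 0.835 (0.755 to 0.924) of subclone 1. SEMA4B supplied from 82.9% to 84.4% of the summed class 4 RPKM of a library, and the class 4 sum was 37.8 ± 1.48 RPKM in the parent library, 56.8 ± 1.79 in subclone 1 and 47.0 ± 1.61 in subclone 2.

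SEMA4G, a membrane-bound semaphorin that binds plexin B2 in the developing cerebellum, had 1.31 RPKM in the parent against 2.75 in subclone 1 and 2.30 in subclone 2, from 26, 56 and 48 reads. The parent was low, and the subclones overlapped. Subclone 1 was 2.10 (1.30 to 3.48) times the parent, and subclone 2 1.75 (1.07 to 2.94) times. The call in subclone 1 was lost with a pseudocount of 1 (0.70 on the log2 scale), after division by ACTB (0.88) and after centring within groups of like G and C content (0.86). MRPL43, a mitochondrial ribosome gene on the opposite strand, shares 16.8% of the SEMA4G exon bases and had 13.8, 15.4 and 15.7 RPKM in the parent, subclone 1 and subclone 2. The counting of strand is not stated, so reads in the shared stretch cannot be given to 1 of the 2 genes.

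SEMA4C, another ligand of plexin B2, had 3.17 RPKM in the parent, then 2.60 in subclone 1 and 2.54 in subclone 2, which overlapped. SEMA4F, a membrane-bound semaphorin first described in neurons, had 1.87, 3.69 and 2.27 RPKM in the same order, from 36, 73 and 46 reads. It was high in subclone 1 alone, with a ratio of 1.97 (1.31 to 3.03) that stood just under the 2-fold line, whereas SEMA4G stood just past it.

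The secreted semaphorins were led by SEMA3C, which acts through neuropilins on A-type plexins and plexin D1. SEMA3C had 11.3 RPKM in the parent library, 15.9 in subclone 1 and 16.1 in subclone 2, so that the subclones had nearly the same value and both lay above the parent. SEMA3A, the repellent that founded the class and acts through neuropilin 1, had 5.38, 3.82 and 6.98 RPKM in the parent, subclone 1 and subclone 2. It was lowest in subclone 1 and highest in subclone 2. SEMA3B, often lost in lung tumours through its place on the short arm of chromosome 3, had 0.969, 1.16 and 1.06 RPKM from 13, 16 and 15 reads, too few to separate the libraries. Centring within groups of like G and C content put SEMA3B below the parent in subclone 2 (-0.06 on the log2 scale). It also put SEMA3C lower in subclone 2 than in subclone 1 (-0.01). The sum of class 3 was 17.9 ± 0.88 RPKM in the parent against 20.9 ± 0.95 in subclone 1 and 24.3 ± 1.00 in subclone 2.

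The plexins, the receptors of the semaphorins, had the highest summed RPKM of the 4 families in each library, and 7 of the 9 had a mean of at least 1 RPKM. The ratio over the parent was above 1 for 4 of the 7 in subclone 1 and for 6 of the 7 in subclone 2, counts that were the same under each of the 5 other scalings. About as many of all genes lay above 1 as below it, with a median log2 ratio of 0.00 and 0.04. The counting interval lay above the parent for 4 of the 7 in subclone 1 and 5 in subclone 2, where 20.9% and 23.5% of all genes did. It lay below the parent for 1 and 0 of them, where 19.9% and 18.8% of all genes did. The B-type plexins, receptors of class 4 and 5 semaphorins, held both plexins called higher.

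PLXNB2, the receptor of SEMA4C and SEMA4G, had 20.1 RPKM in the parent, then 48.0 in subclone 1 and 56.7 in subclone 2, from 574, 1410 and 1707 reads. The parent was far below both subclones, and the intervals of the 3 libraries did not overlap. Relative to the parent, subclone 1 stood at 2.39 (2.17 to 2.64) and subclone 2 at 2.83 (2.57 to 3.11). Subclone 2 exceeded subclone 1 by 1.18-fold (1.10 to 1.27). Among the genes listed in each library, ordered from the highest RPKM, PLXNB2 stood at place 3678 of 14703 in the parent, 1522 of 14900 in subclone 1 and 1304 of 14931 in subclone 2.

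PLXNB3, the receptor of SEMA5A, encoded on chromosome X, had 1.99 RPKM in the parent library, 5.03 in subclone 1 and 4.15 in subclone 2, from 57, 148 and 125 reads. The parent was low again, and the subclones overlapped. This was a ratio over the parent of 2.53 (1.85 to 3.495) in subclone 1 and 2.08 (1.51 to 2.90) in subclone 2. The call in subclone 2 was lost with a pseudocount of 1 (0.78 on the log2 scale), after centring on the median of all genes (0.99) and after centring within groups of like G and C content (0.84). SRPK3, a kinase gene on the same strand with at most 0.664 RPKM, shares 19.6% of the PLXNB3 exon bases.

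PLXNB1, the receptor of SEMA4D, did not follow the other B-type plexins in subclone 1. It had 4.08 RPKM in the parent against 3.47 in subclone 1 and 6.15 in subclone 2, and it was high in subclone 2 alone. The PLXNB2 ratio over the parent was 2.81 (2.14 to 3.71) times that of PLXNB1 in subclone 1 and 1.87 (1.47 to 2.38) times in subclone 2. PLXNB2 was called and PLXNB1 was not, so the direction of this difference follows from the choice. Summed over the class, the B-type plexins came to 26.1 ± 0.95 RPKM in the parent, then 56.5 ± 1.38 in subclone 1 and 67.0 ± 1.48 in subclone 2, and PLXNB2 supplied from 76.8% to 85.0% of this.

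PLXND1, a receptor of SEMA3E known from blood vessel growth, was the highest of all 43 members. It had 64.8 RPKM in the parent library, 107 in subclone 1 and 93.2 in subclone 2, from 2030, 3451 and 3072 reads. Subclone 1 was the highest, the parent the lowest, and no intervals overlapped. Subclone 1 was 1.66 (1.57 to 1.75) times the parent, and subclone 2 1.44 (1.36 to 1.52) times, and subclone 2 came to 0.868 (0.827 to 0.912) of subclone 1.

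The A-type plexins, which pair with neuropilins to receive class 3 semaphorins, differed little as a class. Their sum was 39.9 ± 0.98 RPKM in the parent against 40.6 ± 1.00 in subclone 1 and 41.5 ± 0.99 in subclone 2. PLXNA1 had 19.9, 18.6 and 18.3 RPKM in the parent, subclone 1 and subclone 2, and PLXNA2 had 13.4, 11.7 and 14.3. PLXNA1 overlapped in all 3 libraries, and PLXNA2 was lowest in subclone 1. PLXNA3, encoded on chromosome X, was the A-type plexin that lay above the parent in both subclones, at 6.62, 10.3 and 8.70 RPKM in the same order.

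**Figure D4:**
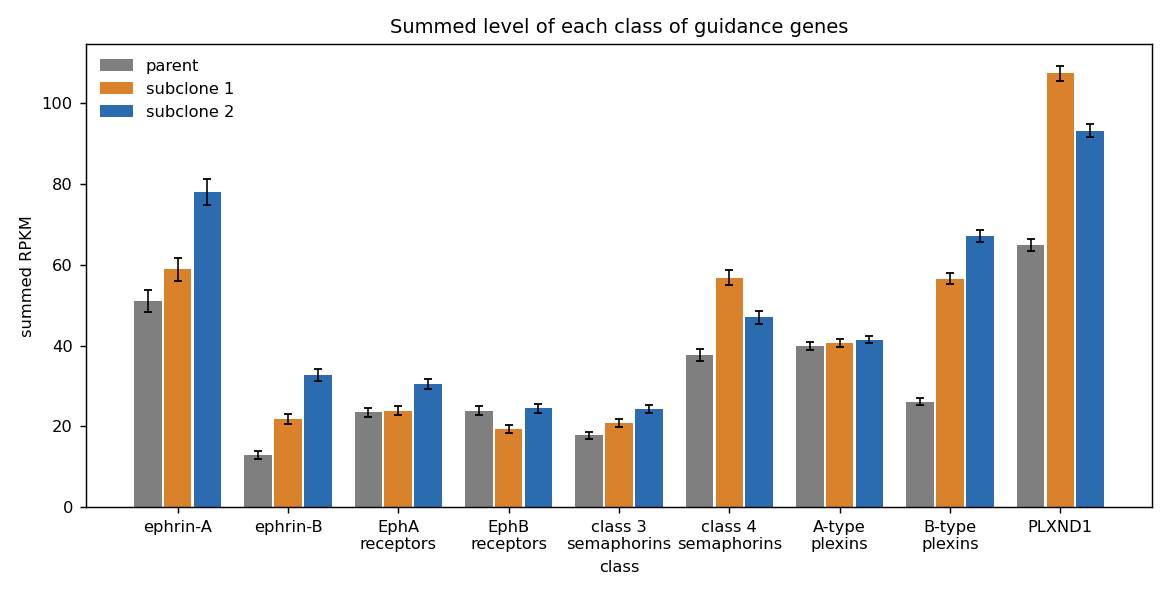
Summed RPKM of each class of guidance genes in the parent (grey), subclone 1 (orange) and subclone 2 (blue), with bars for the counting standard error. The B-type plexins went from 26.1 in the parent to 56.5 and 67.0, whereas the A-type plexins stayed between 39.9 and 41.5.

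Some of the known ligands of the receptors at hand were nearly unread in these cells. SEMA3E, 1 of the ligands of PLXND1, was read 0, 1 and 0 times in the parent, subclone 1 and subclone 2, and the 0 in the parent allows up to 0.101 RPKM by the limit of 3 reads, whereas SEMA3C, which also acts on plexin D1, had 11.3, 15.9 and 16.1 RPKM. SEMA5A, a ligand of PLXNB3, was read 1, 2 and 0 times, and SEMA4D, a ligand of PLXNB1, 1, 2 and 1 times. SEMA4C and SEMA4G, which bind PLXNB2, were both above 1 RPKM in each library.

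The 19 members with a mean under 1 RPKM were 4 Eph receptors, 2 ephrins, 11 semaphorins and 2 plexins, and their means ran from 0.0109 to 0.590 RPKM. Past 2-fold over the parent in subclone 1 were 3 higher (EFNB3, EPHA1 and PLXNC1), where 20.2% of the 4779 genes at this level were, and 2 lower (SEMA3G and SEMA7A), where 14.2% were. In subclone 2 over the parent 1 was higher (PLXNA4), against 19.8% of genes, and 0 were lower, against 14.5%. In subclone 2 over subclone 1 SEMA7A was higher and EFNB3 lower, against 14.2% and 15.6% of genes. All but PLXNC1 and SEMA7A of these rested on at most 3 reads in any library.

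PLXNC1, the receptor of SEMA7A, had 0.364 RPKM in the parent, then 0.915 in subclone 1 and 0.490 in subclone 2, from 12, 31 and 17 reads. The ratio over the parent in subclone 1 was 2.52 (1.26 to 5.38). SEMA7A, a lipid-anchored semaphorin, had 0.722, 0.128 and 0.499 RPKM in the same order, from 11, 2 and 8 reads. Its ratio over the parent in subclone 1 was 0.177 (0.0191 to 0.811), and that of subclone 2 over subclone 1, at 3.90 (0.779 to 37.7), could not be told from equality.

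Outside the 4 families, the co-receptors and pathway genes were taken from lists, whose counts stand against 4.90% of all genes called higher and 1.82% lower in subclone 1, and 5.33% and 2.16% in subclone 2. Of 13 co-receptors and other partners of semaphorins or plexins, 8 had a mean of at least 1 RPKM, and 2 were called higher in each subclone than in the parent and 0 lower. Neuropilin 1 (NRP1), the co-receptor of SEMA3A, had 60.8 RPKM in the parent library, 50.4 in subclone 1 and 53.2 in subclone 2, with the parent the highest. NRP2, the other neuropilin, had 10.8, 9.69 and 8.18 RPKM in the same order. ITGA1, the integrin chain that pairs with ITGB1 to bind collagen and SEMA7A, had 1.07 RPKM in the parent against 3.29 in subclone 1 and 6.29 in subclone 2, and was called in both. KDR, the main receptor of vascular endothelial growth factor, was called in subclone 2 (1.36, 1.93 and 3.08 RPKM), and CD36, a fatty acid and thrombospondin receptor, in subclone 1 (3.39, 7.66 and 3.85 RPKM).

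Of 24 semaphorin and plexin effectors, 20 had a mean of at least 1 RPKM, 2 were called higher in each subclone, 0 were called lower in subclone 1 and 1 in subclone 2. RRAS, a small GTPase that the plexins switch off, had 32.5 RPKM in the parent, then 82.7 in subclone 1 and 83.1 in subclone 2. The subclones had nearly the same value, and the ratio over the parent was 2.54 (2.10 to 3.09) in subclone 1 and 2.55 (2.11 to 3.11) in subclone 2. SH3BP1, a regulator of Rac bound by plexin D1, had 2.06, 4.85 and 7.02 RPKM in the parent, subclone 1 and subclone 2. FARP2, an exchange factor bound by plexin A1, was called lower in subclone 2, at 2.41, 1.60 and 1.15 RPKM. The median log2 ratio of the 20 was 0.11 in subclone 1 and 0.23 in subclone 2.

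Of 28 Eph and ephrin effectors, 24 had a mean of at least 1 RPKM, and GRB7, an adaptor of receptor tyrosine kinases, was the single call, in subclone 2 (2.14, 2.75 and 4.72 RPKM in the parent, subclone 1 and subclone 2). Of 26 genes of the netrin, slit and RGM guidance systems, 6 had a mean of at least 1 RPKM, and 0 were called in either subclone. Between the subclones 0 genes of these 4 lists with a mean of at least 1 RPKM were called, against 1.42% of all genes higher and 1.39% lower. Under that level L1CAM, an adhesion molecule that serves as a co-receptor of SEMA3A, had 0.795, 1.03 and 0.0839 RPKM in the parent, subclone 1 and subclone 2, from 18, 24 and 2 reads. Subclone 2 was 0.0813 (0.00931 to 0.327) times subclone 1 and 0.106 (0.0119 to 0.441) times the parent in this gene.

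The labelled cell type was checked against lists of markers. Of 10 hepatocyte markers 8, 8 and 9 were above 0 in the parent, subclone 1 and subclone 2, with APOA2 at 0 in all 3, and they summed to 24.5, 113 and 106 RPKM. ALB, serum albumin, had 2.46 RPKM in the parent library, 49.5 in subclone 1 and 68.8 in subclone 2, the same order as PLXNB2 and EFNB1. APOB had this order too, from 19, 80 and 278 reads. AFP was read 22, 39 and 41 times, and its subclones could not be told apart, with a ratio of 1.03 (0.645 to 1.63). HNF4A, a hepatocyte transcription factor, had nearly the same value in the parent and subclone 1, at 11.7, 11.9 and 16.01 RPKM. Other markers were highest in subclone 1: TF, transferrin, had 5.71, 30.3 and 5.88 RPKM, and FGB, a fibrinogen chain, 1.66, 14.5 and 5.60. APOA1 (1, 3 and 2 reads) and SERPINA1 (1, 4 and 1 reads) were also highest there, and TTR was read in subclone 2 alone, 2 times. Fibroblast markers were above 0 for 5, 6 and 5 of 8 and summed to 15.7, 31.2 and 24.3 RPKM, with FAP and PDGFRB at 0 in each library. LUM and DCN, matrix proteoglycans, made up the rise of this sum, at 10.1, 24.0 and 21.0 RPKM and 0.773, 4.42 and 2.75 RPKM. COL3A1, a fibrillar collagen, went the other way at 4.42, 2.21 and 0.463 RPKM, and COL1A1 had 0.338, 0.403 and 0.0357. Endothelial markers summed to 37.96, 49.3 and 34.4 RPKM over 4, 6 and 5 of 8 genes, with TIE1 and CLDN5 at 0 in each library. Most of this sum came from ESAM, at 34.2, 39.2 and 29.8 RPKM. PECAM1 had 3.33, 9.81 and 4.46 RPKM, called higher in subclone 1 than in the parent and lower in subclone 2 than in subclone 1. Leukocyte markers summed to 77.2, 115 and 102 RPKM over 6, 4 and 4 of 8 genes, nearly all from CD68, with CD3E and MS4A1 at 0 in each library. Neuronal markers summed to 64.8, 37.8 and 37.5 RPKM over 4, 4 and 6 of 8 genes, mostly from TUBB3 (57.8, 31.2 and 29.3 RPKM) and then SYT1 (6.86, 6.41 and 7.69 RPKM), with SNAP25 and STMN2 at 0 in each library. The part of these markers in the results on the guidance genes was not tested.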

How the data were processed

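For each of the 3 libraries the authors deposited RPKM values of genes by Entrez number and symbol, with reads placed on hg19 per the submitters' processing notes. Aligner, counter, annotation, strand and shared reads are not given in the sources used here. Genes not listed in a library counted as 0 there. Ratios were log2 of (RPKM + 0.1), called at 2-fold among genes with a mean of at least 1 RPKM. Folds with intervals are plain RPKM ratios. Totals and reads were recovered from the whole-number steps of the RPKM, in 88.0% of the 11370 genes at that level, and tested on simulated data. Members and lists were chosen with earlier results of these data known. Text values cover members with a mean of at least 1 RPKM, ratios with intervals those called and the highest of each family, lower members called are named, and from the lists genes called at that level plus NRP1 and NRP2. Picked after values were seen were PLXNC1 and SEMA7A ratios, the ligands set beside their receptors, SEMA4F beside the threshold and RRAS ratios. The same holds for L1CAM, the genes under 1 RPKM named beside it and marker genes. Gene names, chromosomes and order came from the RefSeq table, and shared exon bases and G and C content from GENCODE 29, both on GRCh38, so no place on hg19 is given. Alternatives were pseudocounts of 0.01 and 1, 4 other scalings, no filter or a minimum of 5 RPKM, and 1.5-fold. Centring within 10 groups of genes of like G and C content was added after the data were seen. Work was done in Python 3.11.15 with scipy 1.17.1, pandas 2.3.3 and numpy 2.4.6.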

Additional observations from a re-analysis of the deposited data

Results flagged for a closer look

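5 of the 24 members with a mean of at least 1 RPKM had ratios over the parent on opposite sides of 1 in the subclones, with a counting interval between the subclones that left out equality. The share of all genes that meet both conditions was not counted, so whether 5 of 24 is many is not known. By the interval between the subclones alone, 12.1% of all genes with recovered reads lay higher in subclone 2 and 8.83% lower. Each ratio of the 5 members was below 1 in subclone 1 and above 1 in subclone 2, but only for SEMA3A did both counting intervals over the parent leave out equality. These intervals overlapped it in subclone 1 for PLXNB1, in subclone 2 for EPHB6 and PLXNA2, and in both for EFNA4. On the log2 scale, subclone 2 exceeded subclone 1 by 0.85 for SEMA3A, the secreted ligand of neuropilin 1. The same difference was 0.81 for PLXNB1, the receptor of SEMA4D. It was 0.71 for EPHB6, the Eph receptor without kinase activity. EFNA4, a class A ephrin, differed by 0.40, and PLXNA2, an A-type plexin, by 0.30. With 1 library per cell line, whether the subclones differ in these genes was not tested, and centring within groups of like G and C content put EPHB6 below the parent in subclone 2 too.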

How the results depend on the processing

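No paired analysis was possible because the groups hold 1 library each, and none could be left out. Of 60 counts of guidance genes under the alternatives 46 stayed within 1.5 times the reported count. With a pseudocount of 0.01, 1 member was lower in subclone 2 than in subclone 1 in place of 0, and with a pseudocount of 1, the 1 lower member of subclone 1 over the parent became 0. Without the filter on RPKM, members past 2-fold in subclone 1 were 6 higher and 3 lower, and in subclone 2 over subclone 1, 1 was higher and 1 lower. With a minimum of 5 RPKM, 1 was higher in subclone 1 than in the parent, 0 were lower in either subclone, and the median between the subclones was 0.24. At 1.5-fold, 10 members were higher and 2 lower in subclone 1, 7 were higher in subclone 2, and between the subclones 5 were higher and 2 lower. Fewer or more genes tested, or another threshold, set these counts by construction. The other 26 of 27 medians moved by less than the mean arm of the log2 counting intervals of the 2 middle members. This margin is that of single genes, not of a median over 24, and is a loose one. The median ran from 0.30 to 0.46 in subclone 1 over the parent and from 0.27 to 0.39 in subclone 2. Of the log2 ratios of the named members, 202 of 210 stayed within their counting interval. The 8 others were EPHB3 in subclone 2 over the parent with a pseudocount of 1 (-1.33 in place of -2.56), PLXND1 in subclone 1 (0.59) and between the subclones (-0.08) and PLXNB2 between the subclones (0.36) after division by ACTB, and, centred by G and C content, PLXNB2 (1.11 and 1.31) and PLXND1 (0.58 and 0.34) in the subclones over the parent. Of the 210, 0 whose interval left out equality changed sign. The calls of PLXNB2 in both subclones, PLXNB3 in subclone 1, and EFNA1, EFNB1 and EPHB3 in subclone 2 held under both pseudocounts and all 5 scalings. Division by ACTB shifted the median of all genes by -0.13 in subclone 1 over the parent, where the share of calls that were higher went from 72.9% to 57.8%, and to 0.16 between the subclones, where it went from 50.5% to 64.0%. Over all genes, 557 were higher and 207 lower in subclone 1 (328 lower after division by ACTB), 606 and 246 in subclone 2, and 161 and 158 between the subclones. Without the filter these 6 counts were 1523, 884, 1553, 941, 842 and 902, with a minimum of 5 RPKM 233, 71, 253, 93, 43 and 46, at 1.5-fold 1317, 848, 1444, 830, 540 and 467, and with a pseudocount of 1, 347, 117, 380, 150, 80 and 77. Depth limits the members with few reads: the EFNA3 ratio of 1.58 in subclone 1 over the parent, from 24 and 39 reads, still overlapped equality.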

Other observations

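The places of the called members on their chromosomes were looked at through the 5 genes on each side with a mean of at least 1 RPKM, in the order of the RefSeq table. Around PLXNB2 on chromosome 22, the median log2 ratio of the 10 neighbours was 0.52 in subclone 1 and 0.55 in subclone 2, and ADM2, which encodes a peptide hormone of the calcitonin family, reached 1.35 and 2.07. Around PLXNB3 on chromosome X the median was 0.70 in subclone 1 and 0.63 in subclone 2. RENBP, the renin-binding protein gene in the same stretch, reached 1.92 and 1.64. Past 2-fold higher were 2 of the 10 neighbours of PLXNB2 in subclone 1 and 1 in subclone 2, and 3 and 2 of those of PLXNB3. Of all genes with a mean of at least 1 RPKM, 4.90% and 5.33% were. The ratios of neighbours were not centred within groups of like G and C content. The lowest neighbour stood at -0.31 and -0.32 around PLXNB2 and at -0.61 and -0.72 around PLXNB3.

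The medians around the other called members lay closer to the median of all genes. Around EFNB1, further along chromosome X, the median was -0.02 in subclone 1 and 0.08 in subclone 2. Around EPHB3 on chromosome 3 it was 0.07 and 0.06, and around SEMA4G on chromosome 10 it was -0.02 and -0.08. Around EFNA1, whose neighbours include EFNA3 and EFNA4, it was 0.24 and 0.21. Single neighbours of these members lay past 2-fold too. In subclone 1 the lowest stood at -1.82 around EFNB1 and -1.56 around SEMA4G, and the highest around EFNA1 at 1.08. How far the median of 10 neighbours varies along the genome was not computed. ADM2 and RENBP were picked after their values were seen, and whether neighbours share a cause with PLXNB2 or PLXNB3 was not tested.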
